A study of Rattus norvegicus with 8 samples.

Results

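The kidney clears drugs, toxins and waste products with families of membrane carriers, and 49 rat genes of 5 such families were followed here across the renal cortex and the outer medulla in a model of kidney stones. The rule used gene names and no measured value, but it was chosen with earlier results of these data known. The genes are the measured members of the families Slc22 (17 genes), Slco (12), Slc47 (2), Abcb (8) and Abcc (10), among 15037 genes with a symbol on the array. Of the 49, 33 passed the filter on low values and entered the tests, and 11 were not above background on any array.

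RNA came from kidneys of male Sprague-Dawley rats aged 10 weeks, with each kidney split into cortex and outer medulla, and was measured on Clariom S rat arrays. The first treatment group was the control. In the second, nephrolithiasis was induced over 2 weeks with ethylene glycol, a precursor of oxalate, plus alfacalcidol, a vitamin D analogue. That combination is called EG here. The third group was control with phlorizin, which blocks sodium-glucose cotransport, and the fourth was EG with phlorizin, written as both beside values. There was 1 array for each of the 2 zones and 4 treatments, 8 in all, and arrays of 1 treatment can share animals. The sources used here give no number of animals behind an array and no dose or route for phlorizin. All values are RMA values, taken from their range to be on a log2 scale, where a difference of 1 is 2-fold.

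Secretion of an organic ion across a proximal tubule cell needs an uptake carrier on the blood side and an exit carrier on the urine side. Organic anions enter through the exchangers OAT1 and OAT3, encoded by Slc22a6 and Slc22a8, and organic cations through OCT2, encoded by Slc22a2. Cations leave through the proton exchanger MATE1 of Slc47a1, and many anions and conjugates through ATP-driven pumps of the Abcb and Abcc families. The Slco genes encode organic anion transporting polypeptides, which carry larger molecules such as steroid conjugates, prostaglandins, thyroid hormone and cardiac glycosides.

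Median values of the arrays lay between 7.39 and 7.58, and 23 background probe sets averaged 5.53 to 5.68. A value is called not above background where it is less than 1 above that mean, that is, under a floor of 6.53 to 6.68. A difference between arrays or zones that rests on such values, on all or some arrays of a zone, is given as a bound with them at the floor, and no bound is given where both values are under it. The tests used all values as measured, so a p-value beside a bound belongs to the fitted difference and not to the bound. Over the 13163 tested probe sets, correlations with the control array of the zone were 0.915 for cortex EG, 0.926 for outer medulla EG and 0.968 to 0.992 for the other treated arrays. Spike-in controls were lowest on the cortex EG array, with poly-A spikes at 6.42 against 7.46 to 8.23 on the other 7 arrays and hybridisation spikes at 10.4 against 10.6 to 11.3. With 1 array a group, comparisons of treatments within a zone have no test. They are given as members at least 1 apart on the log2 scale, and the number of arrays limits their precision.

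The first comparison asked where along the kidney these genes are expressed. Genes of the secretory route were higher in the cortex. The uptake carriers Slc22a6, Slc22a8 and Slc22a2, the cation extruder Slc47a1 and the apical pump Abcc2 all fell in the outer medulla, from 4.36 for Slc22a2 and at least 3.85 for Abcc2 to at least 10.94 for Slc22a8 on the log2 scale. A smaller group rose there, Slco4a1 and Abcc5 among them. In limma, 16 of the 33 tested members were lower in the outer medulla and 9 higher at an adjusted p under 0.05, and 8 did not pass. Over all tested probe sets, 18.8% were lower and 32.7% higher. In 13 of the 16 and in 6 of the 9, the values of both zones did not overlap over the 4 treatments. The share of all tested probe sets without such overlap was not counted, so these counts have no baseline. Before moderation, each SE of a zone difference measures how unequal that difference was between the 4 treatments. In these bulk samples, fewer cells of a type and less RNA per cell cannot be told apart.

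Markers of the proximal tubule moved with the zones. All 10 markers of its first segments fell in the outer medulla, with a mean of the list between 16.14 and 16.94 on the cortex arrays and between 8.17 and 8.93 on the outer medulla arrays. Of the 9 markers of the straight segment, 7 fell and none rose, with list means of 11.73 to 14.26 and 9.16 to 10.25. Of the 8 markers of the thick ascending limb, 6 rose and none fell. The part of these cell types in the zone differences of the transporters was not tested.

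**Figure D1:**
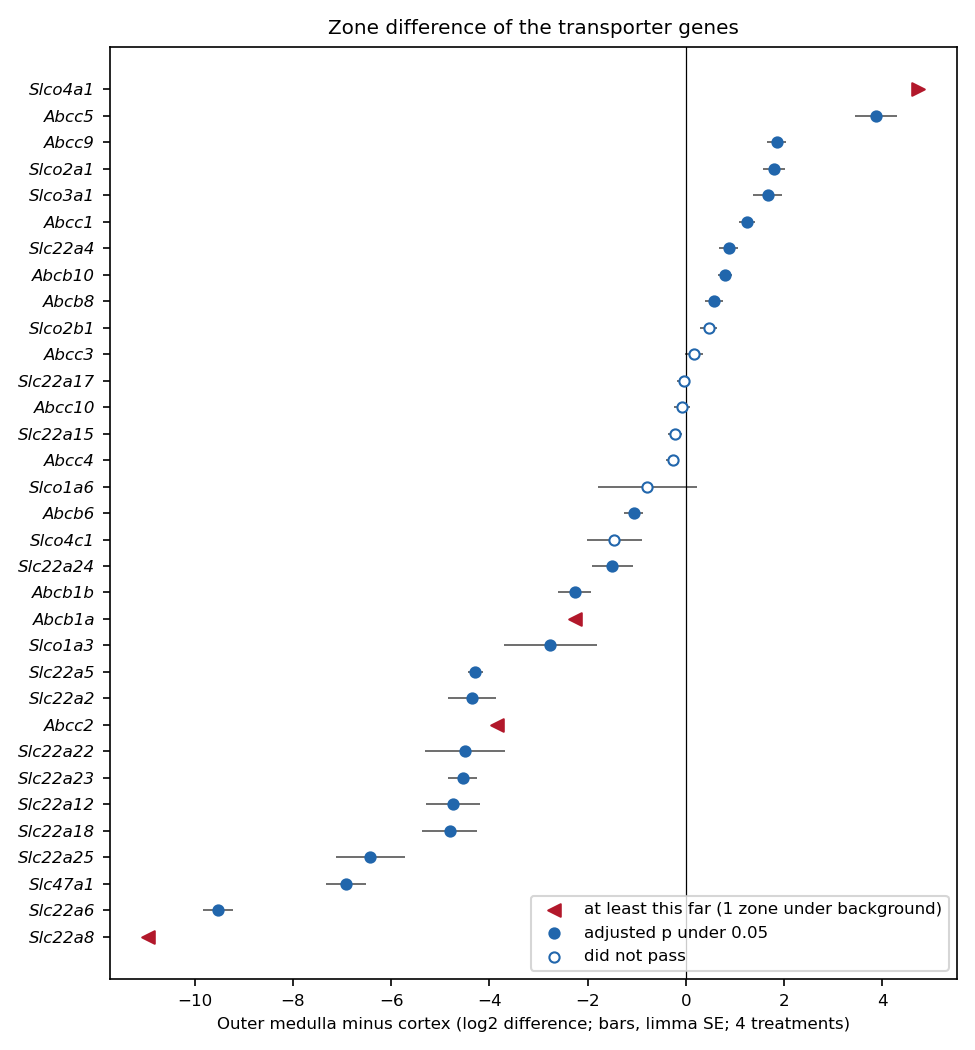
Difference between the zones for the 33 tested transporter genes (x axis, outer medulla minus cortex in log2 units, 4 treatments), with points for the limma estimate and bars for its SE; filled points passed an adjusted p of 0.05. Red triangles are lower bounds for the 4 genes under background on every array of 1 zone. Among them are Slc22a8 (at least 10.94 lower) and Slco4a1 (at least 4.74 higher). The points of Slc22a6, Slc22a12, Slc22a25 and Abcb1b include 1 to 3 arrays under background. That of Slco4c1 includes the EG array of each zone, also under background.

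Promoters are shown for 4 of the members that fell in the outer medulla, because they hold the letters GTTAAT or, read on the opposite strand, ATTAAC. These letters are a half-site of HNF1, a factor known to act on proximal tubule transporter genes. Each sequence is the 250 bases before the annotated start in RefSeq on GRCr8, written 5′ to 3′ in the direction of the gene, with the half-site in capitals.
Slc22a8, chr1:214927034-214927283, plus strand: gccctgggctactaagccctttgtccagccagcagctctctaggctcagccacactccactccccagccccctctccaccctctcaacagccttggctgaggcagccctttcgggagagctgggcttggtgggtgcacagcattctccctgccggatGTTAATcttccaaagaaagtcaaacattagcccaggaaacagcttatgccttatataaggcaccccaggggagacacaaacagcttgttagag
Slc22a24, chr1:214394682-214394931, minus strand: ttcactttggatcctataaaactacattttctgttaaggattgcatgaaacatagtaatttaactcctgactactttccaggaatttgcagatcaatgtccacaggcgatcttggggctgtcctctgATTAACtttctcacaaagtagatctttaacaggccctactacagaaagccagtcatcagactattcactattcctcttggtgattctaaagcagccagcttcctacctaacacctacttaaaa
Slc22a25, chr1:214862341-214862590, minus strand: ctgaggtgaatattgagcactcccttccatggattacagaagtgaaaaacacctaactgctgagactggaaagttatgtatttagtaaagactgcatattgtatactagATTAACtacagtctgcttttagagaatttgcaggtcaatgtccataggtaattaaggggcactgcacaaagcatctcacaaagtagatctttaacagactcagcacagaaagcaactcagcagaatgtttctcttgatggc
Abcc2, chr1:252613625-252613874, plus strand: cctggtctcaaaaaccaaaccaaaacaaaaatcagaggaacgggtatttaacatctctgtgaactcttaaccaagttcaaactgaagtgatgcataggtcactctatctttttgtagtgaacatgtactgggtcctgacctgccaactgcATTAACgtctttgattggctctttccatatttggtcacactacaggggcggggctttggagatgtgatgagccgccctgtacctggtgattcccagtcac

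The half-site begins 93 bases before the start of Slc22a8, 123 before that of Slc22a24, 141 before that of Slc22a25 and 100 before that of Abcc2. RefSeq's table had a promoter for 40 of the 49 members, and 5 of the 40 (12.5%) held the half-site on either strand, the fifth being Slco1b2. Of all 33469 promoters in the table, 6.45% did. Among members that fell in the outer medulla it was in 4 of 14 with a promoter, and among members that rose there in 0 of 8. The letters TATAAA, searched on both strands and not overlapping the half-site in these 4 windows, were in 4 of the 40 members and in 12.9% of all promoters. Slc22a24 and Slc22a25 share a run of 24 bases, tctcacaaagtagatctttaacag, which begins 115 bases before the start of the former and 68 before that of the latter. These matches are descriptions of the letters, searched with the zone values known, and carry no test.

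Among the organic anion transporters of the Slc22 family, all 6 tested members fell in the outer medulla, where 18.8% of all tested probe sets did. Slc22a8, which encodes the anion exchanger OAT3, read 17.85 in control, 16.91 with EG, 17.75 with phlorizin and 17.75 with both in the cortex. Slc22a8 in the outer medulla read 6.22 in control, 4.82 with EG, 6.39 with phlorizin and 5.94 with both. The cortex arrays were far above every outer medulla array, and none of the latter was above background. The difference was therefore at least 10.94 on the log2 scale, or at least 1971-fold (limma adjusted p = 1.09e-06). Slc22a6, which encodes OAT1, the main uptake route for para-aminohippurate, read 16.86 in control, 14.71 with EG, 16.90 with phlorizin and 16.88 with both in the cortex. Slc22a6 in the outer medulla read 7.61 in control, 5.93 with EG, 7.51 with phlorizin and 6.18 with both. The cortex EG array was the low one in its zone, while both EG arrays of the outer medulla were under background. With those 2 values at the floor, Slc22a6 was at least 9.25 lower in the outer medulla. With values as measured it fell by 9.53 (SE 0.31, limma adjusted p = 1.06e-05).

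Slc22a12 encodes URAT1, the apical exchanger that takes urate back from the urine. Slc22a12 in the cortex read 12.55 in control, 9.62 with EG, 12.58 with phlorizin and 12.09 with both. Slc22a12 in the outer medulla read 7.05 in control, 7.17 with EG, 7.52 with phlorizin and 6.16 with both. All cortex arrays lay above all outer medulla arrays, with the EG array lowest in the cortex and the array of EG with phlorizin lowest in the outer medulla, where it was under background. Slc22a22 encodes a prostaglandin carrier of the rodent kidney. Slc22a22 in the cortex read 13.80 in control, 9.23 with EG, 13.83 with phlorizin and 13.39 with both. Slc22a22 in the outer medulla read 8.24 in control, 8.31 with EG, 8.49 with phlorizin and 7.23 with both. Cortex EG was far below the other cortex arrays and came within 1 of the highest outer medulla array. Slc22a12 was at least 4.61 lower in the outer medulla, with the dim array at the floor, and the zone difference of Slc22a22 was -4.50 (SE 0.82).

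The last pair of this role carried the half-sites printed above. Slc22a25 in the cortex read 14.46 in control, 10.64 with EG, 14.43 with phlorizin and 13.69 with both. Slc22a25 in the outer medulla read 6.99 in control, 7.23 with EG, 7.41 with phlorizin and 5.89 with both. As for Slc22a12, the EG array was lowest in the cortex, and that of EG with phlorizin lowest in the outer medulla, under background. Slc22a24, a carrier of steroid conjugates, read 9.52 in control, 7.12 with EG, 10.40 with phlorizin and 9.42 with both in the cortex. Slc22a24 in the outer medulla read 7.82 in control, 7.36 with EG, 8.37 with phlorizin and 6.94 with both. Here the zones overlapped through the cortex EG array alone. Slc22a25 was at least 6.23 lower between zones, with the dim array at the floor. Slc22a24 fell by 1.49 (SE 0.42, limma adjusted p = 0.0246), and it did not pass when the control, the phlorizin or the EG with phlorizin arrays were left out (-1.42, -1.31 and -1.16).

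The pair that moves organic cations across the cell was cortical at both ends. Slc22a2, the uptake carrier OCT2, read 14.85 in control, 12.23 with EG, 14.91 with phlorizin and 14.66 with both in the cortex. Slc22a2 in the outer medulla read 10.95 in control, 9.07 with EG, 10.90 with phlorizin and 8.31 with both. In the outer medulla both EG arrays lay below both arrays without EG. Slc47a1, the apical extruder MATE1, read 14.85 in control, 13.68 with EG, 14.85 with phlorizin and 14.68 with both in the cortex. Slc47a1 in the outer medulla read 7.27 in control, 8.49 with EG, 7.48 with phlorizin and 7.13 with both. The EG array was the lowest in the cortex and the highest in the outer medulla, and no value of one zone reached the other. Slc22a2 fell by 4.36 between zones (SE 0.48) and Slc47a1 by 6.92 (SE 0.41).

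The carnitine and zwitterion carriers went in opposite directions between zones. Slc22a5, the carnitine carrier OCTN2, read 13.50 in control, 12.34 with EG, 13.53 with phlorizin and 13.27 with both in the cortex. Slc22a5 in the outer medulla read 9.57 in control, 7.82 with EG, 9.25 with phlorizin and 8.85 with both. Every cortex array was above every outer medulla array, and the EG array was lowest in both. Slc22a4, which encodes the ergothioneine carrier OCTN1, read 9.62 in control, 7.68 with EG, 9.58 with phlorizin and 8.71 with both in the cortex. Slc22a4 in the outer medulla read 10.87 in control, 7.93 with EG, 10.42 with phlorizin and 9.88 with both. Its zones overlapped, with the EG array lowest in both and EG with phlorizin next. Slc22a5 fell by 4.29 (SE 0.16, limma adjusted p = 1.38e-05). Slc22a4 rose by 0.87 (SE 0.20, limma adjusted p = 0.0109), a call lost without the control arrays (0.75) or those of EG with phlorizin (0.78).

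Among the other Slc22 genes, Slc22a23, a carrier of unknown substrate, read 15.12 in control, 12.65 with EG, 14.94 with phlorizin and 15.01 with both in the cortex. Slc22a23 in the outer medulla read 10.39 in control, 9.18 with EG, 10.32 with phlorizin and 9.66 with both. The EG array was lowest in both zones. Slc22a18, an imprinted gene of the family, read 13.45 in control, 11.71 with EG, 13.84 with phlorizin and 13.25 with both in the cortex. Slc22a18 in the outer medulla read 7.55 in control, 9.18 with EG, 7.84 with phlorizin and 8.46 with both. The EG array was lowest in the cortex and highest in the outer medulla. Slc22a23 fell by 4.55 between zones (SE 0.29), and Slc22a18 fell by 4.81 (SE 0.56). Slc22a15 (7.47 to 8.33 over the 8 arrays) and Slc22a17, a receptor for lipocalin 2 (7.97 to 8.52), did not pass, with zone differences of -0.22 (SE 0.15) and -0.04 (SE 0.13).

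**Figure D2:**
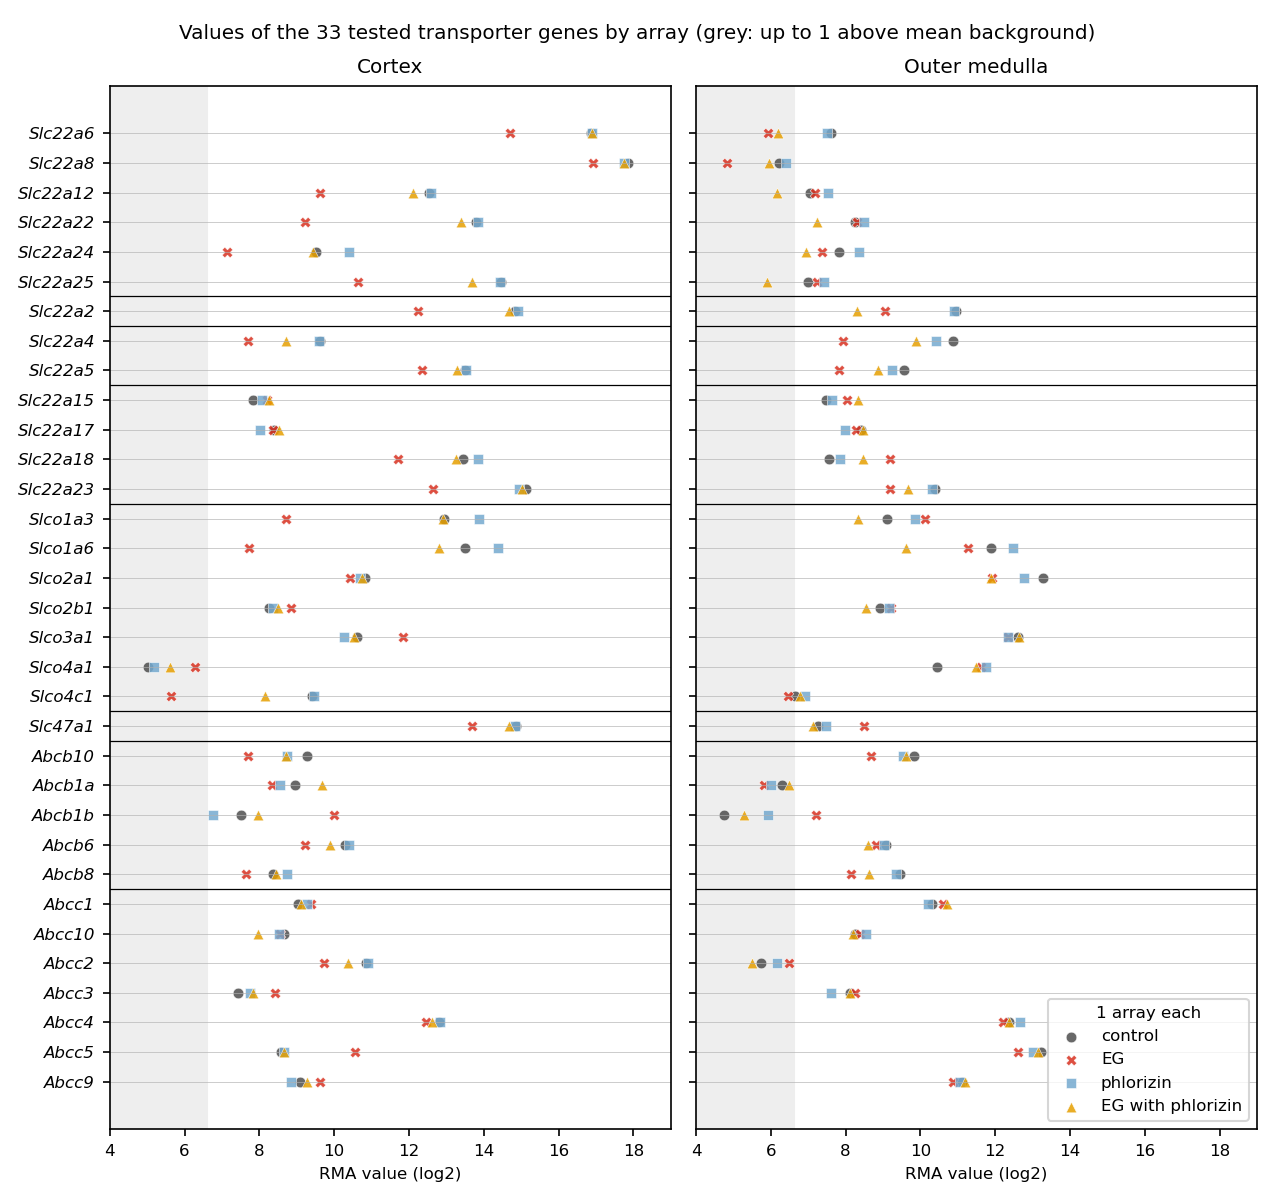
RMA values (x axis, log2) of the 33 tested transporter genes on the 4 cortex arrays (left) and the 4 outer medulla arrays (right), 1 symbol for each treatment, with the range up to 1 above mean background in grey. The red crosses of EG stand apart to the left for most Slc22 genes, Slco1a3, Slco1a6 and Slco4c1 in the cortex, and to the right for Abcb1b in both zones.

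Of 7 tested Slco genes, 3 were higher in the outer medulla and 1 lower, where 32.7% and 18.8% of all tested probe sets were. These counts are near those shares. Slco4a1, a thyroid hormone carrier, read 5.03 in control, 6.29 with EG, 5.19 with phlorizin and 5.62 with both in the cortex. Slco4a1 in the outer medulla read 10.44 in control, 11.63 with EG, 11.75 with phlorizin and 11.48 with both. No cortex array was above background and every outer medulla array was, a difference of at least 4.74 on the log2 scale, or at least 26.7-fold (limma adjusted p = 1.68e-05). Slco2a1, the prostaglandin transporter, read 10.82 in control, 10.41 with EG, 10.70 with phlorizin and 10.73 with both in the cortex. Slco2a1 in the outer medulla read 13.28 in control, 11.92 with EG, 12.77 with phlorizin and 11.89 with both. The zones did not overlap, and the outer medulla EG arrays were the lower pair there. Slco3a1, another prostaglandin carrier, read 10.62 in control, 11.83 with EG, 10.27 with phlorizin and 10.52 with both in the cortex. Slco3a1 in the outer medulla read 12.60 in control, 12.33 with EG, 12.34 with phlorizin and 12.64 with both. The zones came closest on the EG arrays. Slco2a1 rose by 1.80 (SE 0.23) and Slco3a1 by 1.67 (SE 0.29).

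Slco1a3 and Slco1a6 encode kidney carriers of rodents, the former known for methotrexate transport. Slco1a3 in the cortex read 12.95 in control, 8.71 with EG, 13.86 with phlorizin and 12.92 with both. Slco1a3 in the outer medulla read 9.10 in control, 10.12 with EG, 9.85 with phlorizin and 8.33 with both. On the EG arrays the order of the zones was the opposite of that under the other 3 treatments. Slco1a6 in the cortex read 13.49 in control, 7.72 with EG, 14.37 with phlorizin and 12.80 with both. Slco1a6 in the outer medulla read 11.88 in control, 11.28 with EG, 12.48 with phlorizin and 9.62 with both. It showed the same exchange of order, with cortex EG the lowest of all 8 arrays. Slco1a3 fell by 2.76 between zones (SE 0.95, limma adjusted p = 0.0475), a call that ended without the control, phlorizin or EG with phlorizin arrays (-2.40, -2.34 and -2.15). Slco1a6 did not pass (-0.78, SE 1.01).

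Slco4c1, a carrier of digoxin and uremic toxins on the blood side, read 9.40 in control, 5.63 with EG, 9.46 with phlorizin and 8.14 with both in the cortex. Slco4c1 in the outer medulla read 6.65 in control, 6.45 with EG, 6.92 with phlorizin and 6.79 with both. The EG array fell under background in both zones, and these values entered the fit as measured, with no bound given. Its zone difference of -1.45 (SE 0.57) did not pass over the 8 arrays (limma adjusted p = 0.0695) and passed without the EG arrays (-2.21). Slco2b1, a carrier of steroid sulfates, read between 8.25 and 9.21 on the 8 arrays and did not pass (0.47, SE 0.17).

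The ATP-driven pumps of the Abcb family include P-glycoprotein, which rodents encode by the close paralogs Abcb1a and Abcb1b. Signal shared between probes for these paralogs cannot be told apart here. Abcb1a in the cortex read 8.94 in control, 8.32 with EG, 8.55 with phlorizin and 9.67 with both. Abcb1a in the outer medulla read 6.30 in control, 5.82 with EG, 6.01 with phlorizin and 6.48 with both. None of the latter was above background, a difference of at least 2.25, or at least 4.76-fold. Abcb1b in the cortex read 7.50 in control, 10.00 with EG, 6.77 with phlorizin and 7.95 with both. Abcb1b in the outer medulla read 4.74 in control, 7.20 with EG, 5.93 with phlorizin and 5.29 with both. In both zones the EG array stood highest, and it was the single outer medulla array above background. With the other 3 at the floor, Abcb1b was at least 1.28 lower in the outer medulla. With values as measured it fell by 2.27 (SE 0.34, limma adjusted p = 0.00215).

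The intracellular half-transporters of this family were measured in both zones. Abcb10, a mitochondrial protein of heme synthesis, read 9.27 in control, 7.69 with EG, 8.75 with phlorizin and 8.72 with both in the cortex. Abcb10 in the outer medulla read 9.82 in control, 8.68 with EG, 9.53 with phlorizin and 9.62 with both. The EG array was lowest in both zones. Abcb8, also mitochondrial, read 8.37 in control, 7.65 with EG, 8.74 with phlorizin and 8.45 with both in the cortex. Abcb8 in the outer medulla read 9.45 in control, 8.13 with EG, 9.34 with phlorizin and 8.61 with both. It had the same low EG array in both. Abcb10 rose by 0.81 in the outer medulla (SE 0.14) and Abcb8 by 0.58 (SE 0.18, limma adjusted p = 0.0354), the latter a call lost without the control (0.41) or phlorizin (0.57) arrays, with quantile normalization (0.44) and with arrays centred on their medians (0.49). Abcb6, a porphyrin transporter, read 10.28 in control, 9.22 with EG, 10.38 with phlorizin and 9.89 with both in the cortex. Abcb6 in the outer medulla read 9.08 in control, 8.82 with EG, 9.02 with phlorizin and 8.60 with both. The zones did not overlap, and Abcb6 fell by 1.06 (SE 0.20).

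Of the Abcc family, Abcc2 was the cortical member. This apical exporter of conjugates, MRP2, read 10.86 in control, 9.73 with EG, 10.89 with phlorizin and 10.38 with both in the cortex. Abcc2 in the outer medulla read 5.74 in control, 6.49 with EG, 6.17 with phlorizin and 5.50 with both. No outer medulla array was above background, which makes the difference at least 3.85, or at least 14.4-fold (limma adjusted p = 0.000108). Abcc5, an exporter of cyclic nucleotides, read 8.58 in control, 10.57 with EG, 8.66 with phlorizin and 8.66 with both in the cortex. Abcc5 in the outer medulla read 13.21 in control, 12.61 with EG, 13.01 with phlorizin and 13.14 with both. Cortex EG was the high array of its zone, still below every outer medulla array. Abcc9, which encodes the sulfonylurea receptor SUR2 of potassium channels in muscle and vessel walls, read 9.08 in control, 9.62 with EG, 8.84 with phlorizin and 9.28 with both in the cortex. Abcc9 in the outer medulla read 11.10 in control, 10.87 with EG, 11.05 with phlorizin and 11.18 with both. Its outer medulla values were all above those of the cortex. Abcc1, the exporter MRP1, read 9.04 in control, 9.37 with EG, 9.28 with phlorizin and 9.10 with both in the cortex. Abcc1 in the outer medulla read 10.30 in control, 10.61 with EG, 10.19 with phlorizin and 10.71 with both. Its zones did not overlap either. Abcc5 rose by 3.88 in the outer medulla (SE 0.43), Abcc9 by 1.85 (SE 0.19) and Abcc1 by 1.25 (SE 0.16).

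Abcc4, the apical exporter MRP4 of urate and cyclic nucleotides, was level across zones and treatments. Abcc4 in the cortex read 12.80 in control, 12.45 with EG, 12.82 with phlorizin and 12.62 with both. Abcc4 in the outer medulla read 12.37 in control, 12.21 with EG, 12.67 with phlorizin and 12.36 with both. All 8 values lay within a range of 12.21 to 12.82, and the zone difference of -0.27 (SE 0.13) did not pass (limma adjusted p = 0.135). Abcc3, a blood-side exporter, and Abcc10 did not pass either (0.16, SE 0.19, and -0.08, SE 0.16).

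The second comparison was of EG with control, the stone model without phlorizin. In the cortex, most carriers of the secretory route were lower with EG. Of the 33 tested members 17 were at least 1 lower and 4 were higher by as much, where 12.7% and 9.66% of all tested probe sets were. The 17 comprised 5 of the 6 tested organic anion transporters of Slc22, Slc22a2, both carnitine and zwitterion carriers, Slc22a18, Slc22a23, Slco1a3, Slco1a6, Slco4c1, Slc47a1, Abcc2, Abcb6 and Abcb10. The exception among the anion transporters was Slc22a8, lower by 0.94. Over all 49 members the median difference was -0.41, against 0.04 over all 23176 transcript probe sets with 1 probe set a gene. By family or role the medians ran from -2.28 for the 8 organic anion transporters and -1.55 for the carnitine and zwitterion pair to -0.13 for Slco and -0.05 for the 5 other Slc22 genes.

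The largest cortex difference was that of Slco1a6 (-5.77), followed by Slc22a22 (-4.57), Slco1a3 (-4.23) and Slc22a25 (-3.82). Slco4c1 went under background and was at least 2.87 lower. The main secretory carriers differed less, with Slc22a2 at -2.62, Slc22a6 at -2.15, Slc47a1 at -1.17 and Abcc2 at -1.13. On the high side, Abcb1b, 1 of the P-glycoprotein genes, was 2.50 higher, Abcc5 1.98 and Slco3a1 1.21. Slco4a1 was counted as the fourth, but both of its cortex values were under background. With quantile normalization 4 of the smaller differences were less than 1 in size, namely Slc47a1 (-0.98), Abcc2 (-0.97), Slc22a5 (-0.96) and Abcb6 (-0.93).

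In the outer medulla, 9 members were at least 1 lower with EG and 5 were higher by as much, where 9.69% and 8.58% of all tested probe sets were. The lower ones were Slc22a4 (-2.94), Slc22a2 (-1.88), Slc22a5 (-1.76), Slco2a1 (-1.36), Abcb8 (-1.32), Slc22a23 (-1.21), Abcb10 (-1.14), Slc22a6, at least 1.02 lower, and Slc22a8, whose values were both under background. The higher ones were Abcb1b, for which only a bound of 0.60 can be given, Slc22a18 (1.63), Slc47a1 (1.22), Slco4a1 (1.18) and Slco1a3 (1.02, or 0.95 with arrays centred on their medians). The median of the 49 members was -0.12, against 0.01 over all transcript probe sets.

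In both zones 8 members were at least 1 apart in the same direction. Abcb10, Slc22a2, Slc22a4, Slc22a5, Slc22a6 and Slc22a23 were at least 1 lower in both, as were 4.47% of all tested probe sets. Abcb1b and Slco4a1 were at least 1 higher in both, as were 4.9% of all tested probe sets, with the limits on both genes given above. Slc22a18, Slc47a1 and Slco1a3 were at least 1 apart in opposite directions.

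**Figure D3:**
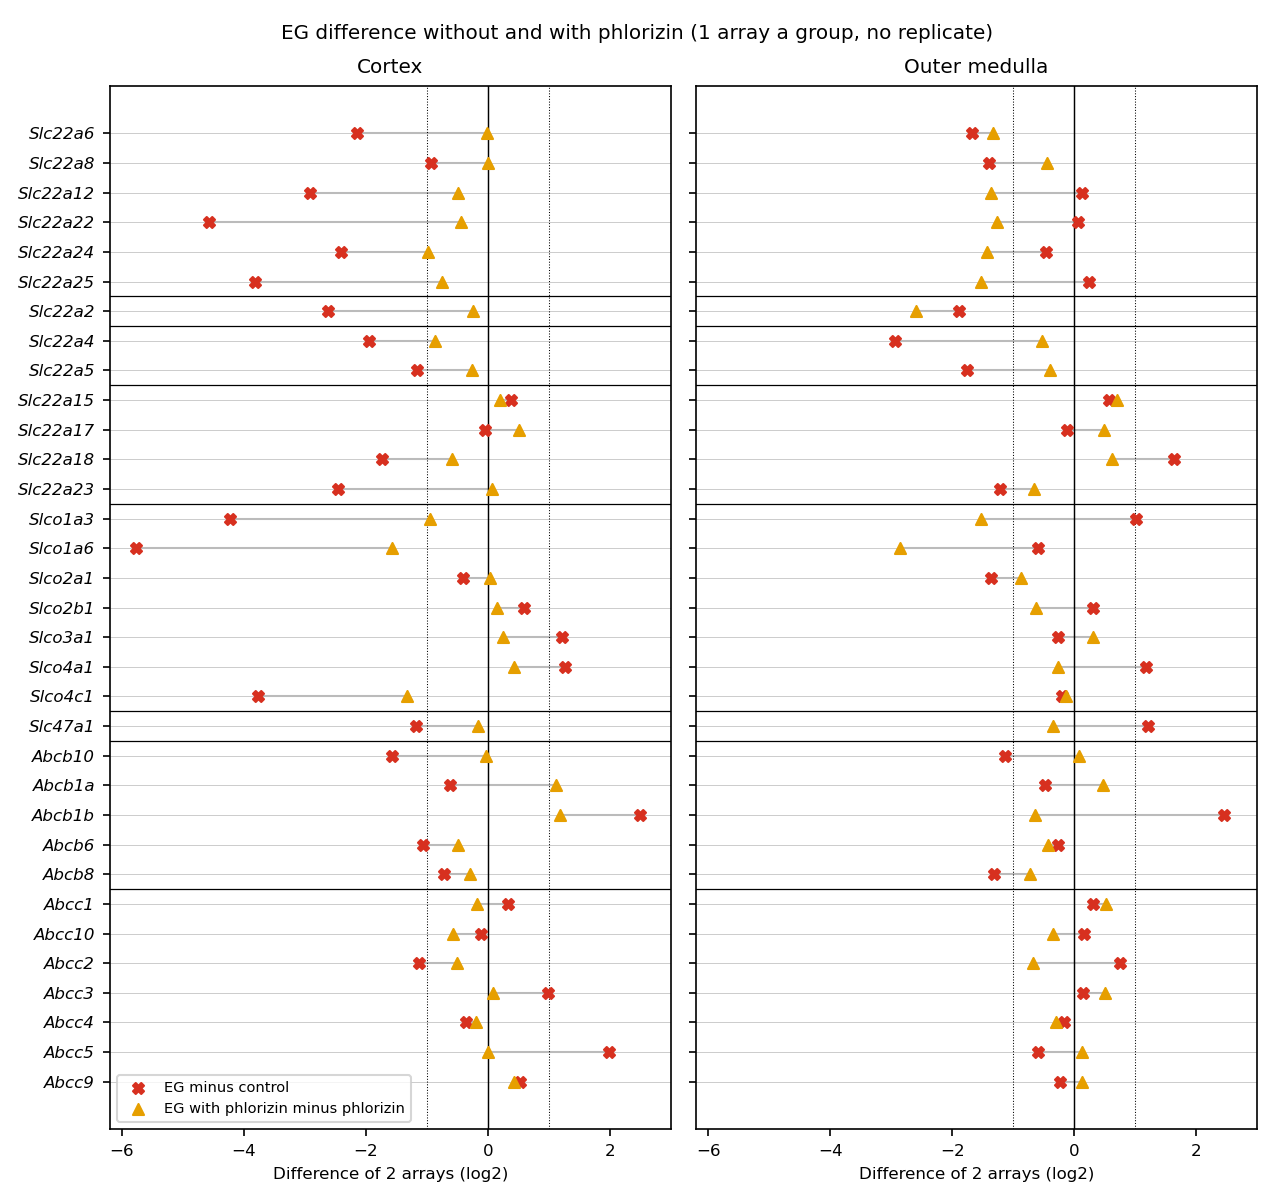
Differences of 2 arrays (x axis, log2) for the 33 tested transporter genes in the cortex (left) and the outer medulla (right), EG minus control as red crosses and EG with phlorizin minus phlorizin as orange triangles, joined by grey lines, with dotted lines at 1 in each direction. The crosses of the cortex reach -5.77 and its triangles -1.57, both for Slco1a6.

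Other gene lists moved with EG. The 8 markers of tubule injury had a mean of 9.49 on the cortex control array and 14.61 with EG, and of 11.30 and 14.67 in the outer medulla. The 6 macrophage markers went from 9.26 to 12.03 and from 10.73 to 12.58, and the 6 fibroblast and mural markers from 11.46 to 14.05 and from 12.58 to 15.21. The markers of the first proximal segments went from 16.94 to 16.14 in the cortex, where 2 of 10 were at least 1 lower, and those of the straight segment from 13.89 to 11.73, where 5 of 9 were. In the outer medulla the first-segment list went from 8.32 to 8.93 and the straight-segment list from 10.03 to 9.91. The list of markers common to all proximal segments went from 11.33 to 12.43 there, with 3 of its 6 genes at least 1 higher and 1 lower. In the cortex that list went from 16.37 to 15.93, with 2 genes at least 1 lower. The thick ascending limb list went from 14.11 to 12.11 in the cortex and, over the outer medulla arrays, from 16.26 to 14.52, with 7 of 8 markers at least 1 lower in each zone. The intercalated cell list went from 12.38 to 9.43 and from 11.85 to 10.41, with 6 and 4 of 6 markers at least 1 lower. The endothelium list went from 12.00 to 11.15 and from 13.04 to 11.89, with 4 of 6 markers at least 1 lower in each zone. No lymphocyte marker passed the filter. Of the 5 hepatocyte markers, Alb, Apoa1 and Serpina1 were under background on all arrays, while Ttr read 6.86 in the cortex control and 8.01 with EG, and Cyp2e1 15.18 and 13.77. The part of these cell types, and of the low spike-in controls of the cortex EG array, in the transporter differences was not tested.

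Over both phlorizin arms, limma tested EG against no EG on 4 profiles, each the mean of both zones of a treatment. The 1 residual degree of freedom is the EG by phlorizin interaction. Before moderation, each SE therefore measures how unequal the EG difference was between the phlorizin arms. No member passed an adjusted p of 0.05, and of all tested probe sets 0.038% were called higher and 0% lower. At an unadjusted p under 0.05, 16 of the 33 members were lower and 1, Abcb1b, was higher, where 1696 and 1296 of the 13163 probe sets were. The 16 included all 6 tested organic anion transporters, Slc22a2 and both carnitine and zwitterion carriers, and no Abcc gene. The profiles use values under background as measured. In the outer medulla these were 4 for Slc22a8, 3 for Abcb1b, 2 for Slc22a6 and 1 each for Slc22a12 and Slc22a25. For Slco4c1 they were the EG array of each zone. In the cortex, Slc22a8 differed by -0.94 without phlorizin and -0.0009 with it. The lowest adjusted p was that of Slco1a6, with a difference of -2.70 (SE 0.29, limma adjusted p = 0.0696). Slc22a2 differed by -1.83 (SE 0.27), Slco1a3 by -1.42 (SE 0.22) and Slc22a24 by -1.32 (SE 0.21), each with a limma adjusted p of 0.0771. For Slco1a3 without phlorizin, the mean over zones combines EG differences of opposite sign, -4.23 for cortex and 1.02 for outer medulla. With phlorizin, both zones of Slco1a3 were lower with EG (-0.94 and -1.53). The small SEs of Slco1a3 and Slco1a6 are therefore no measure of how alike their zones were. Abcb1b differed by 1.37 (SE 0.50, limma adjusted p = 0.18).

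The call depended on the scaling and the filter. With arrays centred on their medians 10 members were lower, as were 2.94% of all tested probe sets, and without the filter 7 were, as were 0.997%. The 7, Slco1a6, Slco1a3, Slc22a2, Slc22a12, Slc22a22, Slc22a24 and Slc22a25, were among the 10. With 8 arrays and the treatment as a random block 4 were, as were 6.55%, and Slc22a2 was the single member called under all 3. In the fit of 8 arrays the estimated correlation within a treatment was -0.10, so both zone arrays of a treatment counted as separate. With quantile normalization or without the covariate no member was called, and 0% of all tested probe sets. None was called with the filter on the mean, the lowest probe set per symbol or a variance prior with trend. No member's EG effect differed between the zones in the limma test of that difference, with 0% of all probe sets called higher and 0% lower. At an unadjusted p under 0.05, 3 members and 1627 probe sets passed. The members were Slc22a18 (2.29, SE 0.55, limma adjusted p = 0.291), Slco4c1 (2.38, SE 0.60) and Slco2a1 (-0.93, SE 0.27). For Slco4c1 the EG array was under background in both zones.

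With phlorizin present, the arrays of EG with phlorizin were compared with those of phlorizin, a comparison that uses none of the control or EG arrays. In the cortex few members were apart. Of the 33, 2 were at least 1 lower and 2 higher, where 1.55% and 2.43% of all tested probe sets were. The lower ones were Slco1a6 (-1.57) and Slco4c1 (-1.32), and the higher ones were the P-glycoprotein genes Abcb1b (1.18) and Abcb1a (1.12). Of the 17 members lower with EG in the cortex without phlorizin, 15 were less than 1 lower here or higher, and 9 were within 0.5 of the phlorizin array. Slc22a6 differed by -0.02, Slc22a2 by -0.24, Slc47a1 by -0.17 and Slc22a22 by -0.44. With 1 array a group the difference between both arms was not tested.

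In the outer medulla 8 members were at least 1 lower with EG and phlorizin than with phlorizin and none higher, where 3.01% and 3.65% of all tested probe sets were. Slco1a6 (-2.86) and Slc22a2 (-2.59) led, followed by Slco1a3 (-1.53), Slc22a24 (-1.43) and Slc22a22 (-1.26). Slc22a25, Slc22a12 and Slc22a6 ended under background and were at least 0.75, 0.86 and 0.86 lower. Slc22a2 and Slc22a6 were on this list in both arms. The median of the 49 members was -0.35, against -0.01 over all transcript probe sets. The straight-segment list went from 10.25 to 9.16, with 5 of its 9 markers at least 1 lower, and the first-segment list from 8.17 to 8.31, and their part was not tested. Slco1a6 was the single member at least 1 lower in both zones, as were 0.319% of all tested probe sets.

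EG with phlorizin was also set against EG, which shares the EG arrays with the comparison to control. In the cortex 15 members were at least 1 higher and 3 lower, where 7.35% and 6.18% of all tested probe sets were. Slco1a6 (5.08), Slco1a3 (4.21), Slc22a22 (4.17) and Slc22a25 (3.05) were the members with the largest higher values, and Slc22a12 (2.47), Slc22a2 (2.44) and Slc22a6 (2.17) were also higher. Slco4c1 was at least 1.61 higher. Slc47a1 lay at the threshold of 1, and at 0.89 with quantile normalization. The lower ones were Abcb1b (-2.05), Abcc5 (-1.91) and Slco3a1 (-1.31). The tubule injury list was at 14.61 on the EG array and 12.51 on that of EG with phlorizin, and the straight-segment list at 11.73 and 13.76. Their part was not tested.

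In the outer medulla 3 members were at least 1 higher with EG and phlorizin than with EG and 7 lower, where 3.35% and 4.34% of all tested probe sets were. Slc22a4 (1.95) and Slc22a5 (1.04) were the higher ones above background, while both values of Slc22a8 were under it. Slco1a3 (-1.79), Slco1a6 (-1.66), Slc47a1 (-1.36) and Slc22a22 (-1.08) were lower, and Abcb1b, Slc22a25 and Slc22a12 ended under background, at least 0.54, 0.57 and 0.52 lower. The members at least 1 apart in the same direction in both zones were Slc22a4, higher (1.15% of all tested probe sets), and Abcb1b, lower (1.71%). The list of markers common to all proximal segments went from 12.43 to 11.16 here, with 5 of its 6 genes at least 1 lower, and that of the straight segment from 9.91 to 9.16. The first-segment list went from 8.93 to 8.31, with 4 of its 10 genes at least 1 lower and 1 higher. Their part was not tested.

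Phlorizin without EG left nearly every member close to control, as it did nearly all tested probe sets. In the cortex none of the 33 was at least 1 apart, where 0.653% of all tested probe sets were higher and 0.501% lower. The largest differences were those of Slco1a3 (0.92), Slc22a24 (0.87) and Slco1a6 (0.87). In the outer medulla 2 were higher and none lower, where 0.577% and 0.205% of all tested probe sets were, namely Slco4a1 (1.30) and Abcb1b, whose values were both under background. In the cortex, the uptake carriers Slc22a6, Slc22a8 and Slc22a2 differed from control by 0.04, -0.10 and 0.06. Over both EG arms no member passed the limma test of phlorizin, with 0% of all probe sets called higher and 0% lower. At an unadjusted p under 0.05, 3 members were higher and none lower, with 202 and 266 of all probe sets. They were Slco1a6 (1.22, SE 0.29), Slco1a3 (1.02, SE 0.22) and Slc22a24 (0.82, SE 0.21), each with a limma adjusted p of 0.995.

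The 16 untested members were dim. Those with no array above background were Slc22a3, Slc22a7, Slc22a14, Slc47a2, Slco1a5, Slco1b2, Slco1c1, Slco6c1, Abcb11, the bile salt export pump of the liver, Abcc8 and Abcc12. The other 5 were above it on some arrays, or on all 8 for Abcb9, and under the filter. Abcb4, a phospholipid transporter, read 6.32 in control, 7.33 with EG, 6.82 with phlorizin and 6.56 with both in the cortex. Abcb4 in the outer medulla read 6.20 in control, 7.09 with EG, 6.88 with phlorizin and 6.47 with both. The EG array was highest in both zones, at least 0.65 above control in the cortex and at least 0.49 in the outer medulla. Abcc6, a gene whose loss causes ectopic calcification, read 6.35 to 7.35 in the cortex and 4.73 to 5.28 in the outer medulla, so that only cortex arrays were above background. Abcb9 read 6.72 to 7.37, Slc22a13 6.22 to 7.08 and Slco5a1 5.95 to 7.47 over the 8 arrays.

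**Figure D4:**
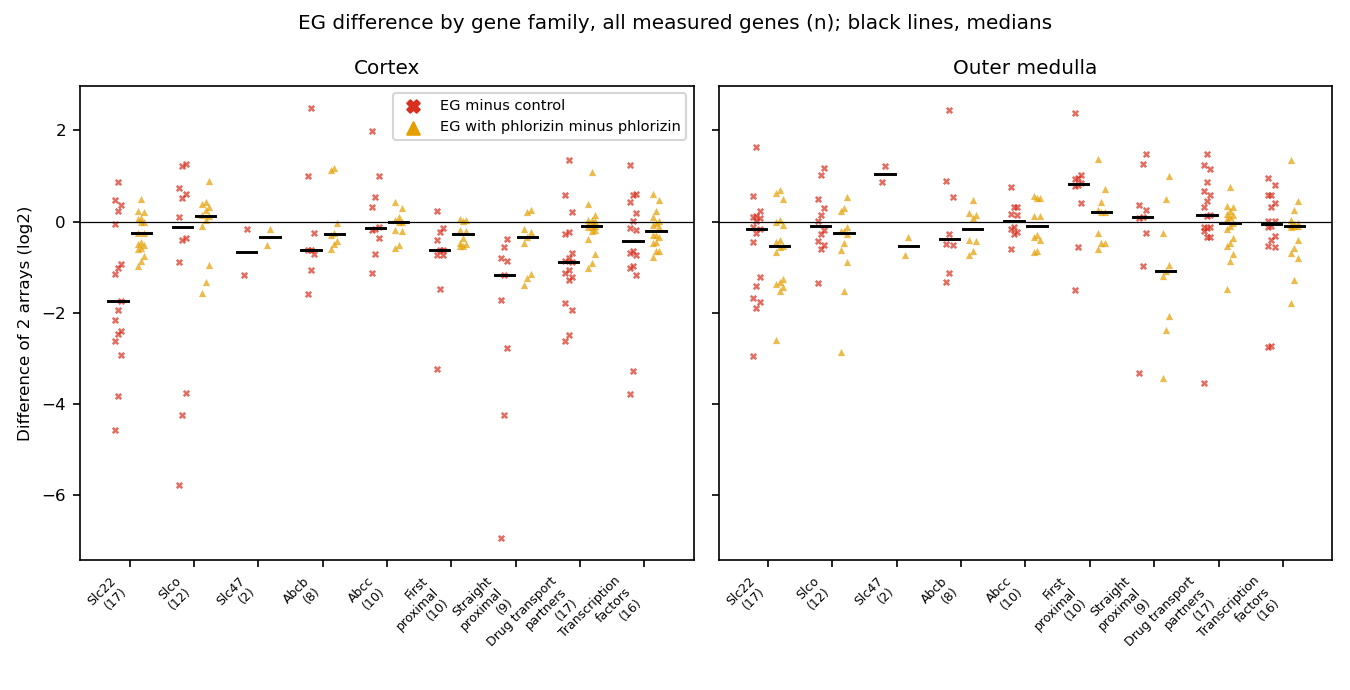
Differences of 2 arrays (y axis, log2) for every measured gene of the 5 transporter families, of proximal tubule markers, of partner genes and of transcription factors, in the cortex (left) and the outer medulla (right), with black lines at the medians and the number of genes in brackets. The median of Slc22 in the cortex lies lowest of the families for EG minus control, and the straight-segment markers have the lowest median in the outer medulla for EG with phlorizin minus phlorizin (-1.09).

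Partner genes of renal drug transport shared the zonation. Of 22 listed genes 17 were measured and 16 tested. In limma 14 fell in the outer medulla and 1 rose, where 18.8% and 32.7% of all tested probe sets did. Slc13a3, which supplies the dicarboxylate that OAT1 and OAT3 exchange, fell by 8.84 (SE 0.28), the scaffold gene Pdzk1 by 7.20 (SE 0.37) and the urate and drug exporter gene Abcg2 by 4.57 (SE 0.41). Slc9a3, the sodium-proton exchanger NHE3, rose by 1.60 (SE 0.33). With EG against control, 8 of the 16 were at least 1 lower and 1 higher in the cortex, where 12.7% and 9.66% of all tested probe sets were. The cortex median of the 17 measured genes was -0.89. In the outer medulla 1 was lower and 3 higher, where 9.69% and 8.58% were. Slc10a2 was among these 3, with both values under background. Slc9a3 was the partner lower in both, from 13.96 to 12.17 and from 16.07 to 12.52. No partner passed the limma test of EG.

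Transcription factors known to act on such genes were measured for 16 of 20, and 14 were tested. Between zones 10 fell in the outer medulla and 2 rose, where 18.8% and 32.7% of all tested probe sets did. Hnf4a, a regulator of proximal tubule genes, was at least 7.35 lower there, with 1 array at the floor. The receptor gene Nr1i2, which encodes PXR, was under background on every outer medulla array and so at least 1.63 lower, and Ppara fell by 2.10 (SE 0.34). With EG, Hnf4a read 14.21 against 14.86 in the cortex control and 8.02 against 7.22 in the outer medulla. Ppara, a receptor of fatty acid metabolism, read 8.55 against 12.34 and 7.56 against 10.30, and with phlorizin 12.08 against 12.72 and 8.81 against 10.59. Nr1h4, the bile acid receptor FXR, read 14.10 against 15.26 and 10.68 against 13.40. These 2 were the factors at least 1 lower in both zones with EG, and no factor passed the limma test of EG.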

How the data were processed

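Total RNA of 8 samples, 1 for each zone and treatment, was hybridised to Clariom S rat arrays. Per the submitters' processing notes the authors used RMA, and the deposited values are taken as log2 values because they range from 2.28 to 19.7. The sources used here do not give the RMA version. No further normalization was applied. No raw intensities were used.

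Of 24834 probe sets, 1646 were controls or other non-transcript sets and stayed out. A gene symbol was available for 15049 of the other 23188. The probe set with the highest mean stood for each of the 10 symbols with several, none of them a transporter here. Probe sets whose highest value reached the median of all values (7.54) were tested, 13163 in all, so a gene high in 1 group could pass through it alone.

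Zones were compared over 8 arrays with the treatment as a block (3 residual degrees of freedom). The effects of EG and phlorizin were fitted on 4 profiles, the means of both zones, and the EG effect by zone on 4 zone differences. These fits used limma 3.58.1 in R 4.3.3, with 2-sided p-values adjusted by Benjamini-Hochberg over all tested probe sets. Nothing in the labels says that arrays came from separate animals, so p-values measure the spread between these arrays. In the fits of EG, phlorizin and EG by zone, the residual before moderation is the EG by phlorizin interaction. In the zone fit, the residual before moderation is how unequal the zone difference was between the 4 treatments. Neither residual is a measure of the spread between animals or repeated arrays. The scripts were tested on simulated data. Python 3.11.15, pandas 2.3.3, numpy 2.4.6 and matplotlib 3.10.9 were used for counts, promoters and figures.

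The members and gene lists were chosen with earlier results of these data known. All tested members are named, untested ones by counts and ranges, and up to 4 genes of each other list. Alternatives covered the scaling, the filter, the fit's unit and variance prior, the size threshold and leaving out a treatment.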

Additional observations from a re-analysis of the deposited data

Results flagged for a closer look

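For 5 members with all values above background, the treatment difference was at least 1 in one direction in the cortex and at least 1 in the other direction in the outer medulla. With 1 array a group, none of these differences between zones was tested within its comparison. In EG against control, Slc22a18 stood at -1.74 in the cortex but at 1.63 in the outer medulla, which are 3.37 apart. Slc47a1 differed by -1.17 and 1.22, which are 2.39 apart. Slco1a3 differed by -4.23 and 1.02, which are 5.25 apart. In limma over both phlorizin arms, the EG effect by zone was 2.29 (SE 0.55, adjusted p = 0.291) for Slc22a18, 1.11 (SE 0.63, adjusted p = 0.548) for Slc47a1 and 2.34 (SE 1.33, adjusted p = 0.547) for Slco1a3.

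In EG with phlorizin against EG, which shares the EG arrays, the direction was the reverse for Slc47a1 (at the threshold of 1 in the cortex, -1.36 in the outer medulla, or -2.36 between zones) and Slco1a3 (4.21 and -1.79, or -6.00). Slc22a22 differed by 4.17 and -1.08, or -5.25 between zones, and Slco1a6 by 5.08 and -1.66, or -6.74. All of these differences include the cortex EG array, which had the lowest spike-in controls, and its part in them was not tested.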

How the results depend on the processing

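The labels give no replicate numbers, and zones were paired within treatments. The zone count of 25 members was 20 without that block and lay between 20 and 27 under its alternatives, and between 21 and 27 when 1 treatment's arrays were left out. The EG effect count of 0 became 10 with arrays centred on their medians, 7 without the filter and 4 with 8 arrays and a random block. It stayed at 0 with quantile normalization and under the other alternatives. The cause was not tested. Centring moved the median of all tested probe sets in EG with phlorizin against EG in the cortex by 0.12. With a threshold of at least 2 apart, the counts for EG against control were 11 in the cortex (21 at 1 apart) and 2 in the outer medulla (14 at 1 apart), those for EG with phlorizin against phlorizin 0 (4) and 2 (8), those for EG with phlorizin against EG 11 (18) and 0 (10), and that for phlorizin against control in the outer medulla 0 (2). At 1.5-fold, the counts rose to 8 and 16 for EG with phlorizin against phlorizin, to 16 for EG with phlorizin against EG in the outer medulla, and to 4 in each zone for phlorizin against control. With the filter on the mean, 1 member each was left for EG with phlorizin against phlorizin in the cortex and for phlorizin against control in the outer medulla, and without a filter 1 was counted for phlorizin against control in the cortex. Of 448 settings for single members, 421 kept direction and call, 18 lost the call, 1 gained it, 8 moved across the size threshold and 0 reversed. Signal near background limits the outer medulla values of many organic anion transporters.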
